A study of Homo sapiens with 6 samples.

Results

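The genes described here are 7 repressors of endogenous retroviruses, TRIM28, SETDB1, EHMT2, DNMT1, UHRF1, DNMT3A and DNMT3B, examined for peaks of H3AcK9, histone H3 acetylated on a lysine of its tail that is otherwise a target of methylation. The rule that chose them named each gene and its interval on hg19, and it used no measured value. Each window was the gene interval with 10 kb added on both sides. All 7 genes could be placed, and 6 of them held peaks. The windows held 129 of the 376666 peaks of the untreated list.

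SKOV3 WT is an established human ovarian carcinoma cell line. The cells received vorinostat or romidepsin for 24 h, each at 1 times its IC50, or no drug, and chromatin was precipitated with an antibody against H3AcK9 and sequenced. Both drugs are HDACis, inhibitors of the histone deacetylases that take acetyl groups off histone tails. With 1 ChIP sample per condition there was no replicate error and no test between conditions, and by the labels the sequencing company divided each treated sample in 2, so that vorinostat and romidepsin have 2 peak lists each and untreated cells have 1. The 2 lists of a drug are given in their order and were not counted as replicates, although the study's own text also speaks of independent experiments. A treated value set against the untreated value is the mean of both lists, and the quotient is called a fold.

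Endogenous retroviruses are remnants of old germline infections, and cells keep most of them silent by packing them into closed chromatin and by methylating their DNA. KRAB zinc finger proteins recognise the viral sequence and bring in TRIM28, a scaffold on which the histone methyltransferase SETDB1 and other silencing factors assemble. EHMT2, also known as G9a, methylates the same lysine. DNMT3A and DNMT3B place new methyl groups on CG dinucleotides, and DNMT1, guided by UHRF1 to DNA that carries the mark on 1 strand, copies the pattern when DNA is replicated. Acetylation and methylation of the lysine cannot coexist on the same residue, and H3AcK9 typically sits around the starts of active genes. The peaks below lie at the repressor genes themselves. They say where the mark was called at these genes and measure neither their transcripts nor their proteins.

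A peak list gives the chromosome, start, end and a score for each peak, and 2 quantities were taken from it. The number of peaks counts the pieces separately, whereas the covered bases are those under any peak. Genome-wide, the untreated list held fewer and wider peaks (344 Mb covered) than the treated lists, which held 884242 to 913199 peaks that covered 296 to 325 Mb. Neither romidepsin list had a peak on chromosomes 13 and X, nor did the second on 21. None of the 7 genes lies there, and genome shares below are therefore given over the other 20 chromosomes. CDKN2A, a gene that SKOV3 is known to lack, was used to check the line. It held no peak in the untreated and vorinostat lists and 1 peak of 178 and 184 bp in the romidepsin lists. The scale of the score is not stated, so a filter on it is not known to be a stricter call. The lists give no read numbers, and the depth behind a peak is unknown.

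Across the 7 windows the treated lists held more peaks that covered a similar number of bases. Peaks numbered 129 without drug, 290 and 288 with vorinostat and 349 and 352 with romidepsin, folds of 2.24 and 2.72. With peaks merged across gaps of up to 1000 bp, the folds in peak number were 1.33 and 1.03. Covered bases were 135998 in untreated cells, 114661 and 113234 after vorinostat (fold 0.838) and 151213 and 145799 after romidepsin (fold 1.09). Over the 20 chromosomes, covered bases gave folds of 0.879 and 0.967, beside which the repressor windows were slightly lower with vorinostat and higher with romidepsin. Tiles of 50 kb at least 20% covered in untreated cells summed to folds of 0.788 and 0.901 over all chromosomes. Beside these the windows were higher with both drugs. The folds of the windows depended on the peaks kept: among peaks that scored 1 or more they were 0.617 for both drugs, and with peaks merged across gaps of up to 1000 bp they were 1.20 and 1.64. Of the untreated bases in the windows, 52.2% were still covered after vorinostat and 58.6% after romidepsin. The same shares over the 20 chromosomes were 42.1% and 44.9%.

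**Figure D1:**
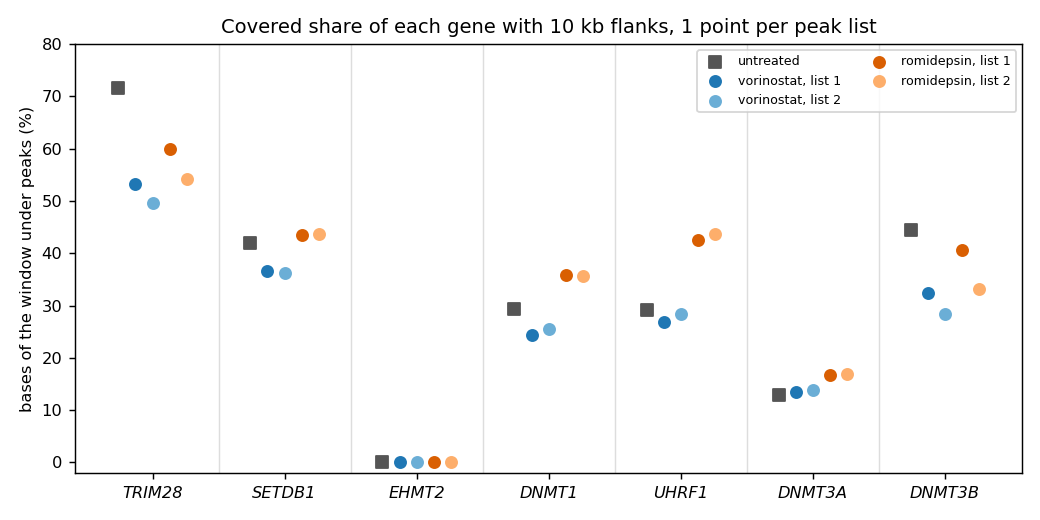
Percent of the bases of each window (gene with 10 kb flanks) that lie under H3AcK9 peaks, with 1 point per peak list, a square for untreated cells and circles for the treated lists. TRIM28 was covered over 71.6% of its window in untreated cells, DNMT3A over 13.0%, and EHMT2 was at 0 in all 5 lists.

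No repressor gene passed a fold of 1.5 in either direction when both lists were averaged. That fold was passed downwards by 27.6% of 50 kb tiles after vorinostat and also by 27.6% after romidepsin, and upwards by 12.5% and 12.8%. These shares are over the tiles with at least 1000 untreated covered bases on the 20 chromosomes. Over all chromosomes they were 28% and 32.9% downwards, and 12.4% and 11.8% upwards. Covered bases were lower than untreated at 5 of 6 genes after vorinostat, against 66.2% of the tiles, with DNMT3A as the exception. After romidepsin they were lower at 2 of 6, TRIM28 and DNMT3B, against 61.8% of the tiles. Among tiles of all chromosomes at least 20% covered in untreated cells, 29.2% and 19.2% passed 1.5 downwards, and 0.906% and 4.3% upwards. Of these tiles, 84.9% were lower with vorinostat and 65.9% with romidepsin. The vorinostat count is thus near the share of the densely covered tiles. The romidepsin share takes in the chromosomes without romidepsin peaks, where every tile is lower. With peaks merged across gaps of up to 1000 bp, the direction turned to higher with vorinostat at SETDB1, DNMT1 and UHRF1, with folds of 1.10, 1.39 and 1.29, and with romidepsin at TRIM28 and DNMT3B, with folds of 1.05 and 1.253. Among peaks that scored 1 or more, 2 genes passed a fold of 1.5 downwards with vorinostat and 4 with romidepsin, and 1 passed it upwards with each drug. Under this filter the 2 lists of a drug could lie far apart, as at TRIM28 with romidepsin (11009 and 1500 bases). At UHRF1 with romidepsin they were close (7840 and 8840 bases). The median fold of the 6 genes was 0.859 for vorinostat and 1.13 for romidepsin, beside 0.839 and 0.882 over the tiles. Over the tiles of all chromosomes at least 20% covered it was 0.771 and 0.890.

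TRIM28, DNMT1 and UHRF1 lie on chromosome 19. After romidepsin its tiles had a median fold of 1.14, beside 0.882 over the 20 chromosomes, and 34.1% of the tiles of chromosome 19 were lower than untreated. Of the tiles of chromosome 19, 23.8% passed a fold of 1.5 upwards with romidepsin and 8.29% downwards. The 3 genes on it summed to a fold of 1.18 with romidepsin and 0.842 with vorinostat. SETDB1, DNMT3A and DNMT3B, on chromosomes 1, 2 and 20, summed to 1.01 and 0.834. The part that the chromosome has in the values of these genes was not tested.

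**Figure D2:**
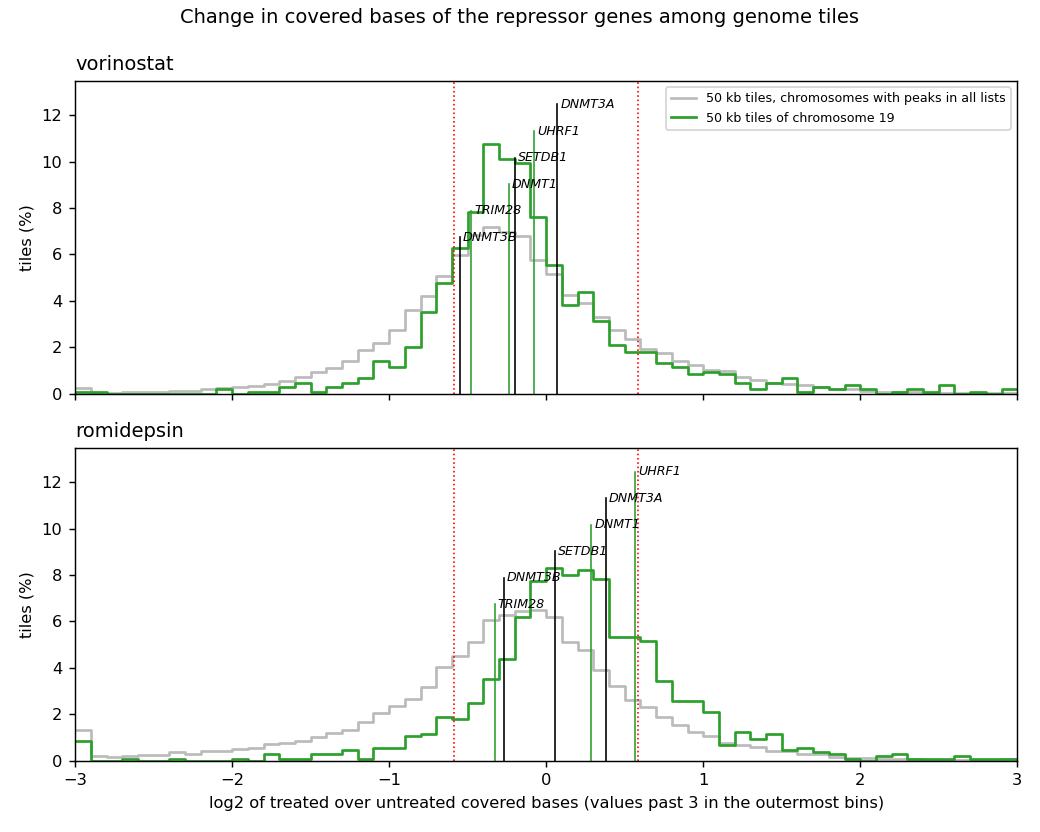
Distribution of log2 folds of covered bases over 50 kb tiles (grey, chromosomes with peaks in all 5 lists; green, chromosome 19), as percent of tiles, with the 6 genes that held peaks as vertical lines (green for those on chromosome 19) and dotted lines at a fold of 1.5 in both directions. All 6 genes lie between the dotted lines, UHRF1 closest to the upper one after romidepsin with a fold of 1.48, and DNMT3B closest to the lower one after vorinostat with 0.682.

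The sequences around the starts of 4 of the genes are shown to give the sequence at the promoters of genes with an untreated peak over or near the 5′ end. Each runs from 250 bases before to 50 bases after an annotated start, 5′ to 3′ on the strand of the gene, as RefSeq gives it on GRCh38.p14, and capitals mark CG dinucleotides, the target of the DNA methyltransferases in this group. The peaks are on hg19, with gene ends known to the nearest kb, and no position was carried between the builds, so peaks and gaps are not placed on these letters. Of the 7 genes, 6 were in the promoter table. The entry of DNMT3B starts 17467 bp inside the gene and EHMT2 held no peak, so neither is printed. That of UHRF1 starts 6421 bp inside the outermost annotated start.
SETDB1, chr1:150926013-150926312, plus strand: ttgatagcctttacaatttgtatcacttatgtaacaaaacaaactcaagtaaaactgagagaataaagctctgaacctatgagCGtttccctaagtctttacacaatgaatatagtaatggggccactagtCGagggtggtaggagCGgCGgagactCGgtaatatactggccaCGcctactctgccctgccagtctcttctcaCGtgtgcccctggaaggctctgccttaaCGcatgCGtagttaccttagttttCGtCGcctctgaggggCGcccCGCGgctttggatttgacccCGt
DNMT1, chr19:10194904-10195203, minus strand: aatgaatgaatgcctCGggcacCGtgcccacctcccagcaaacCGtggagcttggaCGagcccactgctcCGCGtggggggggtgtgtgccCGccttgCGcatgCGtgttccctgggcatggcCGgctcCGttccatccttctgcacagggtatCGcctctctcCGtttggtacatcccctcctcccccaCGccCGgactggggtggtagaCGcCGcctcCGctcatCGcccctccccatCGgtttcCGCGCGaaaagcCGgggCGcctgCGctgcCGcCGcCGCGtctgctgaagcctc
UHRF1, chr19:4909251-4909550, plus strand: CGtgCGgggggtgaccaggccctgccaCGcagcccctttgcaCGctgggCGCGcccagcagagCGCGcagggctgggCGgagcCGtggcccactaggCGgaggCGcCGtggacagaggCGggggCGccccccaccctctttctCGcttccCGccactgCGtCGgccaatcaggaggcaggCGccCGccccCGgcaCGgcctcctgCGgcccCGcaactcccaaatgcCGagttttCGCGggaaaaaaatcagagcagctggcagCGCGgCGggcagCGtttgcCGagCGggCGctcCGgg
DNMT3A, chr2:25342541-25342840, minus strand: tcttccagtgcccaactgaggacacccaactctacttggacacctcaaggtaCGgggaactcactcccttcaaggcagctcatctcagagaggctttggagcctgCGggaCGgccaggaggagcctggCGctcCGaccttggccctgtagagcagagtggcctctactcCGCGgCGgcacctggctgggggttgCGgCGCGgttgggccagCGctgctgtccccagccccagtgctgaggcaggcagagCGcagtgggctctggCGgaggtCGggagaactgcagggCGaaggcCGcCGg
The 300 bases held 15 CG dinucleotides at SETDB1, 30 at DNMT1, 36 at UHRF1 and 18 at DNMT3A. The median of all 35116 promoters in the table was 14, with quartiles of 4 and 28, so DNMT1 and UHRF1 lie above the upper quartile. The GC content was lowest at SETDB1 and 67.0% to 74.0% at the other 3. The letters GGGCGG, searched on both strands, occurred 2 times at UHRF1 and in none of the other 3, and 45.0% of all promoters held them. CCAAT, likewise on both strands, occurred 1 time at UHRF1 and in none of the other 3, against 34.6% of all promoters.

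Summed over the genes, fewer bases at the 5′ ends lay under peaks in every treated list than in the untreated list. In the 4 kb around each 5′ end, known here to the nearest kb, the 6 genes summed to 16311 covered bases in untreated cells, 13407 and 13161 after vorinostat (fold 0.814) and 13957 and 14522 after romidepsin (fold 0.873). Tiles of 4 kb with at least 1000 untreated covered bases on the 20 chromosomes summed to lower folds, 0.673 and 0.754. On chromosome 19 such tiles gave 0.739 and 0.923, and the 5′ ends of the 3 genes there gave 0.822 and 0.911. Covered bases in the 4 kb at the 5′ ends were lower than untreated at 6 of 6 genes with vorinostat. With romidepsin they were lower at 5 of 6, and UHRF1 was higher. Among 4 kb tiles with at least 1000 untreated covered bases on the 20 chromosomes, 83.3% and 75.6% were lower, so these counts are near the background. They were 2 and 0 genes with peaks merged across gaps of up to 1000 bp, where the summed folds were 1 and 1.17. Among peaks that scored 1 or more they were 3 and 3, with lower summed folds of 0.176 and 0.277. That count takes only genes with untreated bases left in the 4 kb, which DNMT3A and DNMT3B did not have, so it is not out of 6. Away from the 5′ ends, the remaining bases of the windows gave folds of 0.841 and 1.12.

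**Figure D3:**
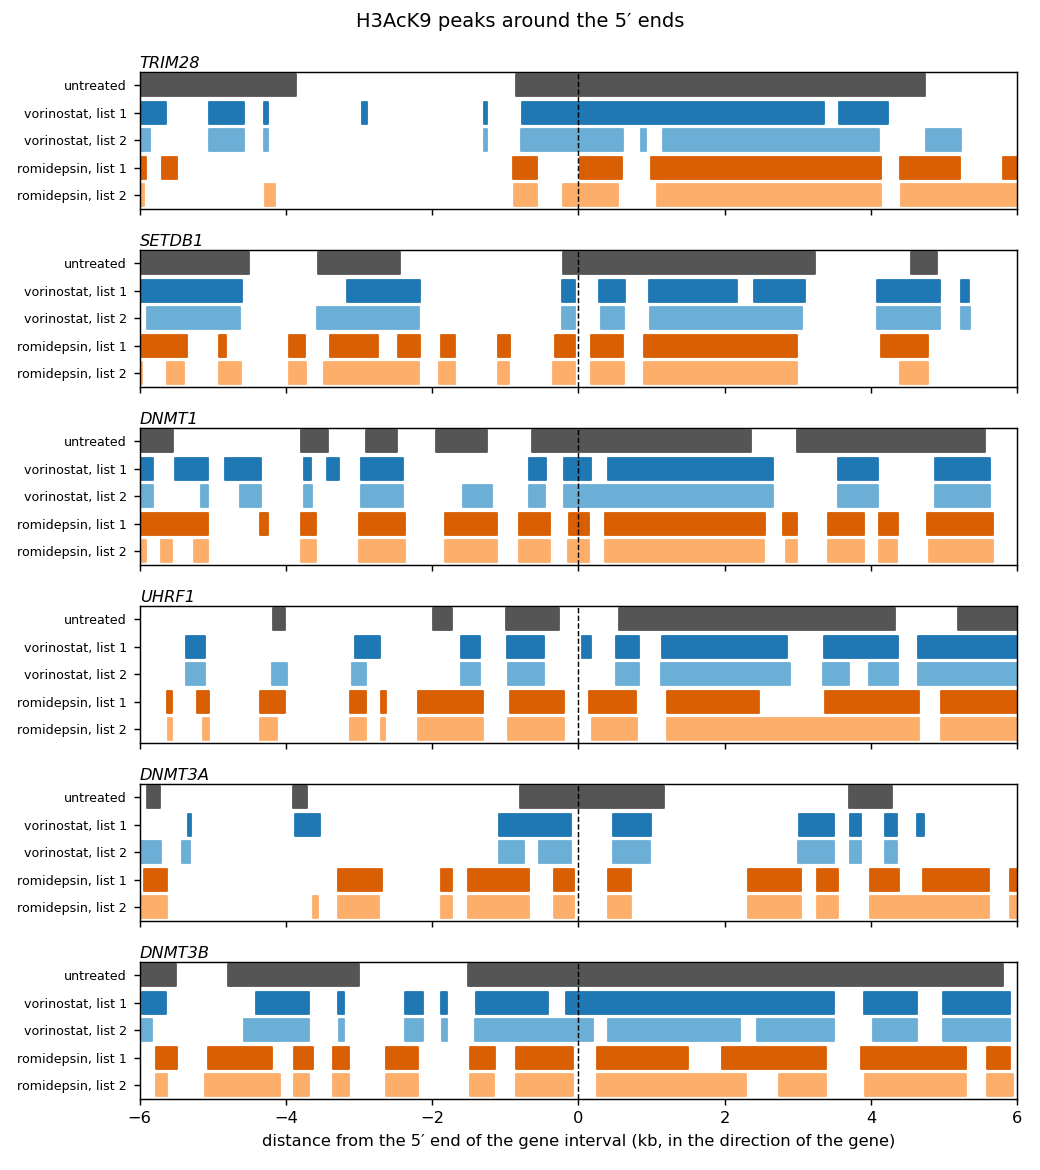
H3AcK9 peaks within 6 kb of the 5′ end of 6 repressor genes, each drawn to scale as a bar, with 1 line of bars per list and position in kb along the direction of the gene and the 5′ end, known to the nearest kb, as a dashed line. A wide untreated peak lies over or just past each 5′ end, and the treated lists hold shorter bars with gaps between them, among them a gap from -45 to 170 bp at SETDB1 and from -56 to 409 bp at DNMT3A.

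Each of the 6 genes had an untreated peak of 1972 to 7316 bp over or just past its 5′ end, and after treatment between 36.2% and 91.2% of its bases were covered. It was divided among 2 to 6 treated peaks. For untreated peaks of at least 2000 bp on the 20 chromosomes, the median share still covered was 61.0% after vorinostat and 63.2% after romidepsin, in a median of 3 pieces. Under 50% was left of 35.1% and 30.2% of them. Inside the peak, every one of the 6 genes had a stretch of at least 100 bp that none of the 4 treated lists covered. Such a stretch was present in 81.5% of the wide untreated peaks, so its presence is no feature of these genes.

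TRIM28, the scaffold, had the most densely marked window. The window, chr19:59045001-59072000 on the plus strand, was covered over 19343 bases in untreated cells, 14368 and 13407 after vorinostat (fold 0.718) and 16172 and 14634 after romidepsin (fold 0.796). All 4 treated lists were below untreated, and the lists of the 2 drugs did not overlap. It held only 4 untreated peaks, against 15 and 17 after vorinostat and 16 in both romidepsin lists. The widest untreated peak, chr19:59062071-59076011 with 13941 bp, started 7070 bp past the 5′ end and ran beyond the window. It was still covered over 66.9% and 54.3% after vorinostat and over 78.7% and 69.7% after romidepsin. By the RefSeq gene order, CHMP2A, UBE2M and ZBTB45 also lie within 10 kb of TRIM28, so the peaks of this window cannot be assigned to TRIM28 alone.

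At the 5′ end of TRIM28 the untreated peak, chr19:59054147-59059742, spanned 5596 bp and the whole start of the gene. In the 4 kb window 2854 bases were covered in untreated cells, 2830 and 2347 with vorinostat and 1912 and 1984 with romidepsin. The fold was 0.907 for vorinostat and 0.683 for romidepsin, and the first vorinostat list was nearly level with untreated. The 10 kb upstream gave folds of 0.679 and 0.412, whereas the gene interval itself gave 0.857 and 1.24. TRIM28 without its flanks was thus higher than untreated with romidepsin and lower with its flanks.

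SETDB1 trimethylates the lysine at loci bound by TRIM28. Of its untreated bases 59.2% were still covered after vorinostat and 65.0% after romidepsin, beside 68.5% and 67.5% at TRIM28. The SETDB1 window, chr1:150888001-150947000 on the plus strand, had 24713 covered bases in untreated cells, 21614 and 21370 after vorinostat (fold 0.870) and 25661 and 25728 after romidepsin (fold 1.04). The lists of a drug were close to each other at this gene, and vorinostat lay below untreated and romidepsin slightly above. Peaks numbered 20, then 45 and 39, and 52 and 53. The 5′ peak of 3442 bp, chr1:150897791-150901232, was covered over 70.5% and 74.2% after vorinostat and 78.5% in both romidepsin lists. In the 4 kb at the 5′ end 2210 bases became 1576 and 1506 with vorinostat (fold 0.697), and 2181 and 2217 with romidepsin (fold 0.995).

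The stretches of the SETDB1 peak that all 4 treated lists left free ran from -45 to 170 bp and from 642 to 893 bp relative to the 5′ end. Both positions are counted from an end known to the nearest kb, so neither gap can be placed on the start of transcription or on the printed promoter. From 10 kb past the 5′ end to the 3′ end, a stretch of 29 kb, SETDB1 had 6765 covered bases in untreated cells, 8769 and 7026 after vorinostat (fold 1.17) and 10289 and 10145 after romidepsin (fold 1.51). The widest untreated peak of the window, 8966 bp at chr1:150942070-150951035, lay beyond the 3′ end towards CERS2. It was covered over 83.1% to 89.8% in the treated lists. Among peaks that scored 1 or more, the romidepsin fold of the SETDB1 window was 0.501. The romidepsin lists then held 2309 and 5866 covered bases, against 8166 in untreated cells.

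EHMT2 could not be described, because no list held a peak in its window, chr6:31837001-31876000. The gene lay inside a stretch of chromosome 6 without peaks. In untreated cells this stretch was 3.54 Mb long, the widest interval without a peak between untreated peaks on the chromosome, and 1.44 Mb of it were free of peaks in all 5 lists. Chromosome 6 as a whole held 21713 untreated peaks, which covered 10.3% of it. DAXX, a chaperone of histone H3.3 that lies in the same chromosome region, held no peak in any list either. An unmarked EHMT2 and a region for which no peaks were called cannot be told apart.

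DNMT1, the maintenance DNA methyltransferase, had more covered bases after romidepsin over the gene interval as a whole and fewer over the 10 kb upstream of it. Its window, chr19:10234001-10316000 on the minus strand, was covered over 24053 bases in untreated cells, 19903 and 20885 after vorinostat (fold 0.848) and 29424 and 29268 after romidepsin (fold 1.22). Both vorinostat lists were below untreated and both romidepsin lists above it. Peaks numbered 27 in untreated cells, 65 and 62 with vorinostat, and 72 and 76 with romidepsin. Their median width was 801 bp in untreated cells and 215 to 282 bp in the treated lists.

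The widest untreated peak of DNMT1 was the one over its 5′ end, chr19:10303638-10306633 with 2996 bp. It remained covered over 83.8% and 91.2% after vorinostat and 84.1% and 84.6% after romidepsin, the highest minimum of the 6 genes. A stretch of 191 bp, from -390 to -199 bp, was free in all 4 treated lists. In the 4 kb at the 5′ end 3338 bases were covered in untreated cells, 2194 and 2804 after vorinostat (fold 0.749) and 3043 and 3057 after romidepsin (fold 0.914). The 10 kb upstream of DNMT1 gave folds of 0.599 and 0.714. With romidepsin the lower value lay from -10 to -5 kb, where 3603 untreated bases stood against 2150 and 1751. The 5 kb next to the start were level, with 2128 against 2187 and 2101. The first 5 kb of the gene were lower with romidepsin, 3511 and 3419 against 4376.

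Inside DNMT1 the drugs differed more. The 52 kb from 10 kb past the 5′ end to the 3′ end had 8780 covered bases in untreated cells, 9068 and 9589 after vorinostat (fold 1.06) and 16884 and 16922 after romidepsin (fold 1.93). The covered share of this stretch was 16.9% in untreated cells and 32.5% in both romidepsin lists. Of the 50 kb tiles of chromosome 19, 23.8% were higher by a factor of 1.5 or more with romidepsin. Between 50 and 55 kb from the 5′ end, for example, 185 bases were covered in untreated cells, 200 and 333 with vorinostat, and 1957 and 1632 with romidepsin. The vorinostat lists were close to untreated over the inner part as a whole and both romidepsin lists were above them. The vorinostat fold of this part was 0.649 among peaks that scored 1 or more and 1.90 with the 1000 bp merge, and the romidepsin fold with that merge was 3.21. Among peaks that scored 1 or more, the inner part still had more covered bases with romidepsin, 9189 and 9047 against 5271 in untreated cells, whereas the whole DNMT1 window then gave a romidepsin fold of 0.558.

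UHRF1, the reader that leads DNMT1 to hemimethylated DNA, had the highest romidepsin fold of the group. Its window, chr19:4899001-4972000 on the plus strand, was covered over 21263 bases in untreated cells, 19658 and 20654 after vorinostat (fold 0.948) and 31012 and 31854 after romidepsin (fold 1.48). The 2 romidepsin lists were above all others, and the vorinostat lists were close to untreated. Peaks numbered 25, then 45 and 52, and 66 in both romidepsin lists. UHRF1 also kept most of its untreated bases, 60.6% after vorinostat and 77.9% after romidepsin.

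The 5′ untreated peak of UHRF1, chr19:4909560-4913329, was 3770 bp wide and began 559 bp past the 5′ end. Its covered share was 77.9% and 72.7% after vorinostat and 64.5% and 88.8% after romidepsin, so the lists of the romidepsin sample differed here by more than the drugs did. The 4 kb at the 5′ end had 2430 covered bases in untreated cells, 2066 and 1937 after vorinostat (fold 0.824) and 2859 and 2853 after romidepsin (fold 1.18). Between 827 and 1133 bp all 4 treated lists were free of peaks. The widest untreated peak of the window, 4544 bp at chr19:4969192-4973735 on the side of KDM4B, remained covered over 89.3% to 91.9%.

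The higher romidepsin value of UHRF1 lay mainly in its inner part. In the 43 kb from 10 kb past the 5′ end to the 3′ end, 4216 bases were covered in untreated cells, 4788 and 5319 after vorinostat (fold 1.20) and 12909 and 12871 after romidepsin (fold 3.06). The share of the stretch was 9.80% in untreated cells and 30.0% and 29.9% after romidepsin, and the number of peaks was 13, then 24 and 28, and 39 in both romidepsin lists. Of the 50 kb tiles of chromosome 19, 23.8% were higher by a factor of 1.5 or more with romidepsin. No background was made for inner parts of genes. Of 15 bins of 5 kb along the window, romidepsin was higher than untreated in 13 and vorinostat in 4. Of the 5 kb tiles with peaks on chromosome 19, 59.7% were higher with romidepsin and 44.6% with vorinostat. Between 35 and 40 kb, 145 bases were covered in untreated cells, 105 and 54 with vorinostat, and 2076 and 1630 with romidepsin. The higher inner value depended on which peaks were kept. Among peaks that scored 1 or more, the inner part of UHRF1 had 4089 bases in untreated cells and 3190 and 3162 after romidepsin, a fold of 0.777, and the window a fold of 0.674. The vorinostat fold of the inner part was then 0.909, and it was 1.85 with the 1000 bp merge.

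**Figure D4:**
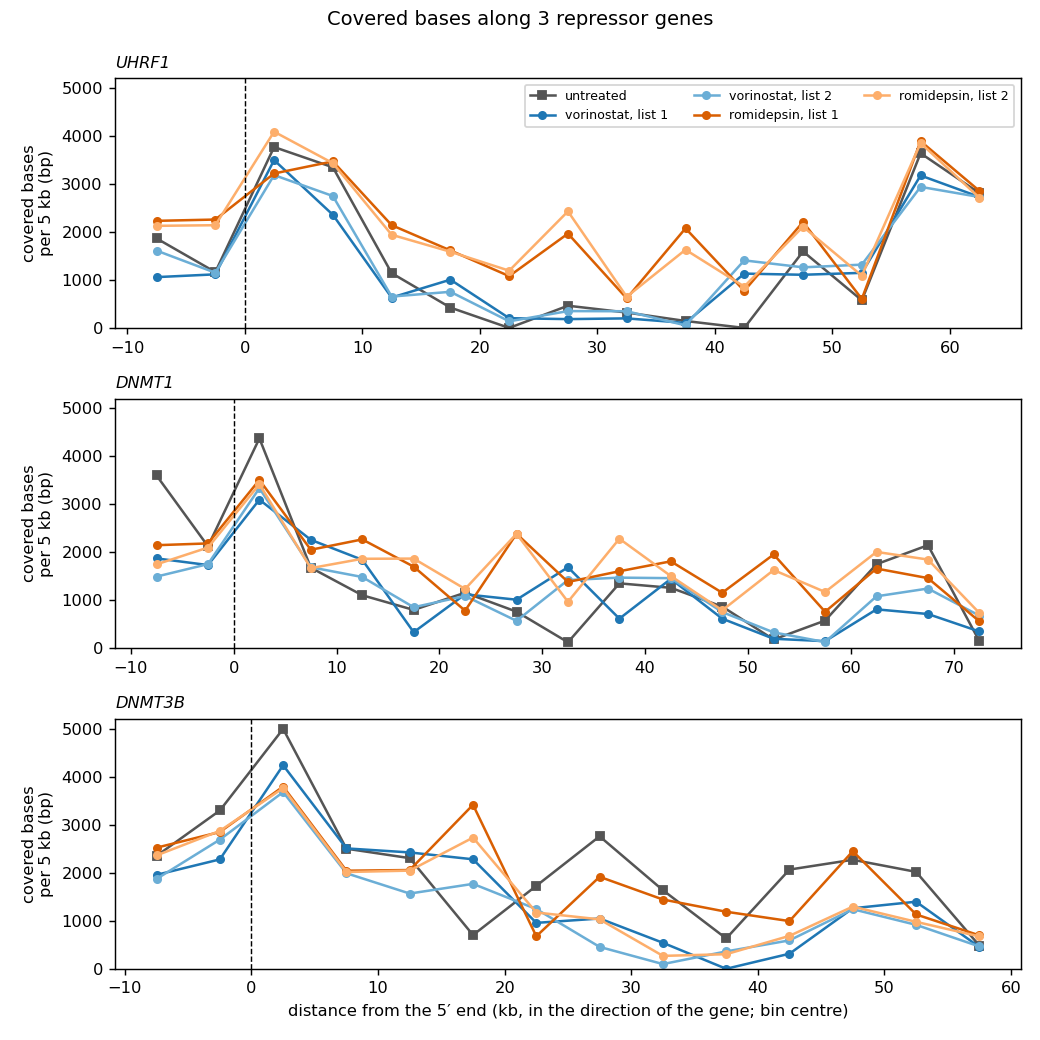
Covered bases in successive bins of 5 kb (bp, vertical axis) along UHRF1, DNMT1 and DNMT3B against the distance of the bin centre from the 5′ end (kb), with 1 line per peak list. In UHRF1 and DNMT1 the mean of the romidepsin lists was above untreated in 13 of 15 and 13 of 17 bins, against 59.7% of the 5 kb tiles with peaks on chromosome 19. In DNMT3B the romidepsin mean was above untreated in 4 of 14 bins and the vorinostat mean in 1, although single lists were above it in more.

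DNMT3A, a de novo DNA methyltransferase, had the sparsest marking of the 6 genes, and most of its treated bases lay outside untreated peaks. Its window, chr2:25445001-25575000 on the minus strand, was covered over 16859 bases, 13.0% of its length, in untreated cells. It had 17448 and 17965 covered bases after vorinostat (fold 1.05) and 21749 and 22105 after romidepsin (fold 1.30). All treated lists were above untreated, vorinostat only slightly. With peaks under 200 bp left out, the vorinostat fold of DNMT3A was 0.832. Other choices took both drugs past the fold of 1.5 upwards, to 1.55 and 2.33 among peaks that scored 1 or more and to 1.64 and 2.24 with the 1000 bp merge. With the score filter the romidepsin lists held 8443 and 4323 bases, against 2739 in untreated cells. Peaks numbered 27, then 73 and 69, and 76 and 84. Of the untreated bases 32.7% were still covered with vorinostat and 33.0% with romidepsin, the lowest shares of the group, and 68.9% and 74.6% of the treated bases lay outside untreated peaks. Over the 20 chromosomes 52.1% and 53.5% of treated bases did.

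The 5′ peak of DNMT3A was also the widest of its window and the one least covered after treatment. It spanned 1972 bp, chr2:25563835-25565806, of which 62.3% and 51.3% were covered after vorinostat and 36.2% in both romidepsin lists. The romidepsin share is the only one of these 5′ peaks under 50% for either drug. A stretch of 465 bp within it, from -56 to 409 bp of the 5′ end as rounded to the kb, was free in all 4 treated lists. In the 4 kb window 1972 bases were covered in untreated cells, 1504 and 1288 after vorinostat (fold 0.708) and 1561 in both romidepsin lists (fold 0.792). In the 100 kb from 10 kb past the 5′ end to the 3′ end of DNMT3A, 11192 bases were covered in untreated cells, 12778 and 13238 with vorinostat and 14246 and 14072 with romidepsin, folds of 1.16 and 1.27. These were 0.891 and 1.06 with peaks under 200 bp left out, and 1.79 and 2.10 with the 1000 bp merge.

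DNMT3B, the other de novo enzyme, had fewer covered bases in every treated list. Its window, chr20:31340001-31407000 on the plus strand, had 29767 in untreated cells, 21670 and 18953 after vorinostat (fold 0.682) and 27195 and 22210 after romidepsin (fold 0.830). The lists of a drug differed more here than at the other genes: the second vorinostat list alone gave 0.637, past the fold of 1.5, and the first gave 0.728. Peaks numbered 26, then 47 and 49, and 67 and 57. In the 37 kb from 10 kb past the 5′ end to the 3′ end, 13119 covered bases in untreated cells stood against 7982 and 6505 after vorinostat (fold 0.552) and 12661 and 8587 after romidepsin (fold 0.810). With the 1000 bp merge these folds were 0.859 and 1.31. Of 14 bins along the window, vorinostat was higher than untreated in 1 and romidepsin in 4.

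At the start of DNMT3B the untreated peak was the widest of the 5′ peaks, 7316 bp at chr20:31348494-31355809. It was covered over 84.9% and 80.8% after vorinostat and 74.5% and 73.8% after romidepsin, in 4 to 6 pieces. The 4 kb window had 3507 covered bases in untreated cells, 3237 and 3279 after vorinostat (fold 0.929) and 2401 and 2850 after romidepsin (fold 0.749).

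Romidepsin and vorinostat were given at the same multiple of the IC50 and for the same time, and were compared directly. At 6 of 6 genes both romidepsin lists had more covered bases than both vorinostat lists. The ratio of romidepsin to vorinostat was 1.11 at TRIM28, 1.20 at SETDB1, 1.24 at DNMT3A, 1.22 at DNMT3B, 1.44 at DNMT1 and 1.56 at UHRF1. The same order held in 41.8% of the 50 kb tiles on the 20 chromosomes. It held in 71.1% on chromosome 19, and in 83.8% of the tiles there that were at least 20% covered in untreated cells, as the 3 genes on it were. It held in 60.7% of the tiles of all chromosomes with at least that cover, which 5 of the 6 windows had. These take in the chromosomes without romidepsin peaks, where the order could not hold. Among peaks that scored 1 or more, it held at 1 of 6 genes. The order needs both lists of a drug, and under this filter they could lie far apart. At TRIM28 the romidepsin lists then had 11009 and 1500 bases, with 5325 and 3768 for vorinostat.

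Along all 6 windows, 90 bins of 5 kb held peaks. Romidepsin was higher than untreated in 55 of them, or 61.1%, and vorinostat in 32, or 35.6%. The shares of 5 kb tiles with a peak in any list on the 20 chromosomes were 48.8% and 52.1%. On chromosome 19, where 3 of the 6 genes lie, they were 59.7% and 44.6%. By gene, the romidepsin share ranged from 1 of 6 bins at TRIM28 to 13 of 15 at UHRF1.

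The bases common to all 5 lists, as a share of the untreated bases, were 48.8% at UHRF1, 40.6% at TRIM28, 38.4% at SETDB1, 27.3% at DNMT3B, 26.7% at DNMT1 and 14.7% at DNMT3A. For comparison, the lists of the same sample shared 74.5% to 92.1% of their bases within a window.

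Other genes of the same pathways were read in the same way. Of 11 listed partners, HP1 proteins, members and cofactors of silencing complexes and related enzymes, 9 had a hand-entered length that matched the reference within 3 kb and 8 of these held peaks. Covered bases were lower than untreated at 8 of 8 after vorinostat and at 6 of 8 after romidepsin, with median folds of 0.767 and 0.948. Of the 50 kb tiles on the 20 chromosomes, 66.2% and 61.8% were lower. Of the tiles of all chromosomes at least 20% covered in untreated cells, 84.9% and 65.9% were, chromosomes without romidepsin peaks included. EHMT1, the partner of EHMT2, had the lowest vorinostat fold. It had 57618 covered bases in untreated cells, 34093 and 27762 after vorinostat (fold 0.537) and 53315 and 51669 after romidepsin (fold 0.911). TASOR, a subunit of the HUSH silencing complex, was past the fold of 1.5 as well with vorinostat at 0.573 and had the lowest romidepsin fold, 0.791. Past that fold downwards with vorinostat were thus 2 of 8 partners, against 27.6% of the 50 kb tiles on the 20 chromosomes. SUV39H2, a histone methyltransferase of constitutive heterochromatin, had the highest vorinostat fold, 0.983, and MORC2, an ATPase that works with HUSH, the highest romidepsin fold, 1.24. In the 4 kb at the 5′ end, 7 of 8 partners were lower with either drug, as most of the repressor genes were. Of the 4 kb tiles on the 20 chromosomes, 83.3% and 75.6% were lower, so these counts are near the background.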

How the data were processed

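The H3AcK9 data of SKOV3 WT were 5 peak lists, 1 of untreated cells and 2 each of the vorinostat and the romidepsin sample. The 3 input samples have no list of their own here and were not analysed. According to the methods and the labels, the authors used SOAPnuke to filter reads and SOAPaligner, SOAP2 or BWA to align them with at most 2 mismatches, and called peaks for each list with MACS 1.4.2. The deposited score of each peak has no stated scale and was used only as a filter. The deposited start and end of each peak are coordinates, taken as they are. The labels name hg38, but peaks on chromosomes 1, 2, 6 and 19 end past the hg38 chromosome ends, so gene intervals on hg19 were used. No exon or intron was assigned, since the annotation at hand is on another build. Drosophila chromatin served as a spike-in, and its use in the lists is not given in the sources used here.

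Peaks sharing at least 1 bp with a window were counted, and covered bases, shares still covered and gaps were computed with Python 3.11.15, NumPy 2.4.6 and pandas 2.3.3, with figures from Matplotlib 3.10.9. Interval functions were tested on simulated data. A fold divides the mean over a drug's lists by the untreated value, with 1.5 as the limit for a call. With 1 sample per condition no test was made. The background is the share of 50 kb tiles past the same limit or lower than untreated. For 4 kb tiles it is the share lower than untreated, and for 5 kb tiles the share higher. For wide untreated peaks it is the share under 50% covered, or with an uncovered inner stretch of at least 100 bp. All 7 genes are named in full, as are, of the partner genes, those with the highest and the lowest fold for each drug, and for each gene its widest untreated peak and the one at its 5′ end. Partner positions on hg19 were entered by hand. TASOR is also named for vorinostat because it passed the limit for a call. The genes and lists were chosen with earlier results of these data known. Depth is unknown, since the lists hold no read counts.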

Additional observations from a re-analysis of the deposited data

How the results depend on the processing

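No paired analysis was possible because each condition has 1 sample and no result comes from a test. Values are folds for vorinostat and then romidepsin, over all 7 windows unless stated. They depended most on which peaks were kept and on merging, and the cause was not tested.

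With only peaks of a score of at least 1, covered bases were 0.617 and 0.617, peak number 1.52 and 1.54, and covered bases at the 5′ ends 0.176 and 0.277. Members past the limit for a call were then 2 and 4 lower and 1 and 1 higher, members lower at the 5′ end 3 and 3, and members with fewer covered bases after romidepsin 5. The count at the 5′ end leaves out DNMT3A and DNMT3B, which had no untreated bases there under this filter. Both romidepsin lists were above both vorinostat lists at 1 member. The 2 lists of a drug lay far apart at some members under this filter. The inner part of UHRF1 reversed to 0.777 with romidepsin. With only peaks at least 200 bp wide, covered bases were 0.747 and 1.01, peak number 1.43 and 2.02, vorinostat at the 5′ ends 0.791, and 1 member was past the limit, lower, with vorinostat.

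With peaks merged across gaps of up to 300 bp, covered bases were 0.918 and 1.23, peak number 1.89 and 2.12, and the 5′ ends 0.880 and 0.971. Romidepsin then had 2 members past the limit, higher, and 3 members lower at the 5′ end. With gaps of up to 1000 bp, covered bases were 1.20 and 1.64, peak number 1.33 and 1.03, and the 5′ ends 1 and 1.17. Members with fewer covered bases were then 2 and 0, members past the limit, higher, 1 and 3, and members lower at the 5′ end 2 and 0.

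Divided by the fold of the genome's covered length, covered bases were 0.953 and 1.19, peak number 2.55 and 2.95, the 5′ ends 0.926 and 0.949, and 1 member was past the limit, higher, with romidepsin. Without flanks, covered bases were 0.897 and 1.24 and peak number 2.26 and 2.77, with 1 member past the limit for each drug, lower with vorinostat and higher with romidepsin, and 1 member lower with romidepsin. With 20 kb flanks, covered bases were 0.811 and 1.05 and the vorinostat peak number 2.28, with 1 member past the limit, lower. With 1 kb on each side of the 5′ end the folds there were 0.767 and 0.727, and with 5 kb the romidepsin fold was 0.929. Peaks counted by their midpoint gave 2.27 and 2.77. A smaller limit for a call was passed by 2 members, lower, with vorinostat, and by 1 lower and 2 higher with romidepsin. In the second list alone 1 member passed the limit of 1.5 with vorinostat.

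For single genes, 94 of 108 alternatives kept the direction of the covered bases. Those that turned it were, for vorinostat, UHRF1 at 1.04 (score), 1.02 (300 bp merge), 1.29 (1000 bp merge) and 1.08 (scaled), SETDB1 at 1.10 and DNMT1 at 1.39 (1000 bp merge), and DNMT3A at 0.832 (width). For romidepsin they were SETDB1 at 0.501, DNMT1 at 0.558 and UHRF1 at 0.674 (score), SETDB1 at 0.983 (width), TRIM28 at 1.05 and DNMT3B at 1.253 (1000 bp merge), and TRIM28 at 1.24 (no flanks). Scaling of the share still covered was not run. The inner parts of the genes, the direct comparison of the drugs, the split by chromosome, the 20 chromosomes with peaks in all lists, the tiles at least 20% covered, the 4 kb tiles and the gaps shared by the treated lists were chosen after seeing the data.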
